A study of Mus musculus with 4 samples.

Results

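The genes described here encode intracellular carriers of fatty acids and retinoids: the fatty acid binding proteins Fabp3, Fabp4, Fabp5 and Fabp7 and the cellular retinoic acid binding proteins Crabp1 and Crabp2. They were 6 of the 21828 genes measured, taken by name, and each had 1 row with an OK status in all 4 libraries. The group was chosen because Fabp7 has one of the largest falls in Cd73-positive cells of Ezh2-deficient retina, so the ratio between genotypes in those cells, and the 2 levels behind it, are given below as a description and support nothing. RNA was sequenced from mouse retina at postnatal day 12 after dissociation with trypsin and flow sorting on Cd73, a surface enzyme encoded by Nt5e that rods and their precursors carry, which allows rods and the other retinal cells to be compared in the presence and absence of Ezh2. Cells with Cd73 on their surface (Cd73P) and cells lacking it (Cd73N) were each collected from wild type and from Ezh2-cKO retina, all on the slc:ICR background, with 1 library for each of the 4 groups. Ezh2-cKO retina came from Ezh2-floxed mice crossed with DKK3-Cre mice, in which Cre is made in retinal progenitors from early in embryonic life, and controls were normal littermates. The study cautions in its discussion that speed of sorting was put before purity, and the number of retinas pooled for each library is not given in the sources used here. Because each group was 1 library, no difference below has a replicate check or a p-value, and the error given with a value, a counting standard error (SE), describes reads of a single library and not animals or sorts.

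These carriers belong to one family of small cytosolic proteins that hold a hydrophobic ligand inside a barrel of beta strands. Fatty acid binding proteins move long-chain fatty acids between membranes, enzymes and nuclear receptors of the PPAR group, and Fabp7 is widely used as a marker of radial glia and neural progenitors. Cellular retinoic acid binding proteins hold retinoic acid, Crabp1 being associated with its breakdown by Cyp26 enzymes and Crabp2 with its delivery to retinoic acid receptors. In the retina, retinoids also serve vision, and retinoic acid takes part in eye development. Ezh2 is a histone methyltransferase of the Polycomb group, which is associated with gene repression.

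The sequences upstream of Fabp7 and Crabp1 are shown because these were the lowest ratios of the 6 genes in Cd73P. Each is the 250 bases before the annotated start on the plus strand, 5′ to 3′, from RefSeq on GRCm38.p6, at chr10:57784673-57784922 for Fabp7 and chr9:54764498-54764747 for Crabp1, with CpG dinucleotides in capitals.
Fabp7: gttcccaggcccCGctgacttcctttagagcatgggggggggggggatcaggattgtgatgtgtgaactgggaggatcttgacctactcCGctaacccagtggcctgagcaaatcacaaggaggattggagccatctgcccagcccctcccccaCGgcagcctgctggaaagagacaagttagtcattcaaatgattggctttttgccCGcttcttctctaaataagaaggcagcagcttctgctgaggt
Crabp1: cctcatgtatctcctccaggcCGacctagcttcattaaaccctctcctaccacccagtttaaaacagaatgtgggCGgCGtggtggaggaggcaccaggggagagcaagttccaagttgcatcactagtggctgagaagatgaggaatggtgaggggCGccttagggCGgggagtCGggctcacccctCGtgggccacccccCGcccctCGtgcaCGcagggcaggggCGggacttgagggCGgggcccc
The Fabp7 stretch held 4 CpG dinucleotides and the Crabp1 stretch 12. Over the 300 bases that include 50 after the start, the counts were 6 for Fabp7 and 17 for Crabp1, against a median of 7 over 32851 windows of that length; 43.6% of those windows had fewer CpG dinucleotides than Fabp7 and 68.6% fewer than Crabp1. The same table held Fabp3, with 22 CpG dinucleotides in its window, and did not match Fabp4, Fabp5 and Crabp2. Searched on both strands, AGGTCA (the core of nuclear receptor sites) was found 1 time in the Fabp7 window and in 16.3% of all windows, TGGGAA (the core of RBPJ sites) 1 time in the Fabp7 window and in 25.6% of all windows, and TAATCC (bound by photoreceptor homeodomain factors) was not found there but in 7.06% of all windows. None of these letters was found in the windows of Crabp1 and Fabp3. These matches describe the letters only.

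The labels were first checked against the values. FPKM (fragment counts scaled for exon length and for how many fragments of a library mapped, a level per length that can be set side by side between genes) of Nt5e was 0.84 (wild type) and 0.61 (Ezh2-cKO) among Cd73N cells and 125 and 123 among Cd73P cells, which separates the fractions as labelled. Ezh2 itself had FPKM of 14.1 and 15.9 in Cd73N wild type and Ezh2-cKO and of 5.38 and 3.45 in Cd73P. Among Cd73N cells the library labelled Ezh2-cKO was thus not the lower one. This value counts reads over the whole gene, including any exons outside the floxed part, so it does not check the genotype, and genotypes are named as labelled throughout. FPKM of at least 1 was found for 10353 to 12744 genes in a library, and depth inferred from the deposited bounds was 1 to 1.16 times that of Cd73N wild type. Ratios are differences of log2(FPKM + 1), which understates the changes of weakly expressed genes, and a gene was counted as higher or lower past 1.5-fold on that scale, the threshold used in the study.

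Fabp7, at chr10:57504729-57508256 on the plus strand of mm9 and with 4 exons, was the highest of the 6 genes in both Cd73P libraries. Its FPKM was 77.5 ± 2.35 (counting SE) for wild type and 48.3 ± 1.65 for Ezh2-cKO among Cd73N cells, and 99.8 ± 2.63 and 20.5 ± 1.11 among Cd73P cells. It was highest in the Cd73P fraction of wild type and lowest in the same fraction of Ezh2-cKO. In Cd73P the genotype ratio was -2.23 ± 0.083 on the log2 scale, which is a 4.88-fold lower FPKM and the 6th lowest ratio of 21703 genes. That is the value the group was chosen by. In Cd73N the ratio was -0.67 ± 0.065, a 1.61-fold lower FPKM. It was 0.36 ± 0.057 for Cd73P over Cd73N in wild type, short of 1.5-fold, and -1.20 ± 0.089 in Ezh2-cKO, so the fraction with the higher level changed between the genotypes. Scaling moves the first of these: with libraries set to the same FPKM sum it was 0.77, and with the median of genes that reach FPKM 1 in both libraries at 0 it was 0.69, both past 1.5-fold.

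Fabp5, a fatty acid carrier made in many tissues, lay at chr3:10012606-10016610 on the plus strand and had the highest level of the 6 genes in both Cd73N libraries. FPKM was 88.9 ± 2.28 for wild type and 58.6 ± 1.57 for Ezh2-cKO among Cd73N cells, and 16.8 ± 0.920 and 8.57 ± 0.612 among Cd73P cells. Both Cd73N libraries were above both Cd73P libraries, and Ezh2-cKO was below wild type in each fraction. The log2 ratio between genotypes was -0.59 ± 0.053 in Cd73N, just past 1.5-fold, and -0.90 ± 0.119 in Cd73P, while that between fractions was -2.33 ± 0.083 in wild type and -2.64 ± 0.0998 in Ezh2-cKO. With libraries set to the same FPKM sum, the Cd73N genotype ratio of Fabp5 was -0.44 and that of Fabp7 -0.53, both short of 1.5-fold. The levels of Fabp5 are uncertain for another reason: 54.8% of the 36-base windows of its transcript, the length of the reads, occurred elsewhere in mm9, at 6 other loci, and reads with up to 50 hits were kept.

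Fabp4, the carrier of fat cells, macrophages and some vessels, lay at chr3:10204343-10208576 on the minus strand. Among Cd73N cells its FPKM was 2.22 ± 0.383 for wild type and 4.40 ± 0.497 for Ezh2-cKO, and among Cd73P cells it was 8.20 ± 0.773 and 13.2 ± 1.11. On the log2(FPKM + 1) scale it was past 1.5-fold higher in Ezh2-cKO in both fractions, by 0.75 ± 0.217 in Cd73N and 0.63 ± 0.165 in Cd73P, and it was higher in Cd73P than in Cd73N in both genotypes, by 1.52 ± 0.211 and 1.40 ± 0.174. The bounds imply 33.4 fragments in the library with the lowest level and 143 in the one with the highest. Fabp3, the carrier of heart and skeletal muscle, at chr4:129986022-129992707 on the plus strand, had FPKM of 3.06 ± 0.481 for wild type and 5.03 ± 0.541 for Ezh2-cKO among Cd73N cells, and of 0.77 ± 0.212 and 0.70 ± 0.184 among Cd73P cells. Its genotype ratio of 0.57 ± 0.215 in Cd73N was just short of 1.5-fold, and it was past that threshold with a pseudocount of 0.1 (0.70) or none (0.72), with libraries set to the same FPKM sum (0.70) and with the median of genes that reach FPKM 1 in both libraries at 0 (0.62). In Cd73P its ratio of -0.06 ± 0.233 was within its counting error of 0. Between fractions Fabp3 was lower in Cd73P, by -1.20 ± 0.243 in wild type and -1.83 ± 0.203 in Ezh2-cKO. Its level is uncertain too, since 66.5% of its 36-base windows occurred at 2 other loci; no such window was found for Fabp4, Fabp7, Crabp1 or Crabp2.

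Crabp1, at chr9:54612615-54620916 on the plus strand, followed the order of Fabp7 at a far lower level. FPKM was 3.81 ± 0.467 (wild type) and 1.98 ± 0.305 (Ezh2-cKO) among Cd73N cells, and 4.53 ± 0.509 and 0.74 ± 0.189 among Cd73P cells. As for Fabp7, the level was highest in Cd73P wild type and lowest in Cd73P Ezh2-cKO, though the wild-type levels differed by little more than their counting SE. The genotype ratio was -0.69 ± 0.204 in Cd73N and -1.67 ± 0.205 in Cd73P, the latter a 6.10-fold lower FPKM and the 23rd lowest of 21703 ratios, resting on 79.4 implied fragments against 15.4. Between fractions it was 0.20 ± 0.193 in wild type and -0.77 ± 0.216 in Ezh2-cKO. Crabp2, at chr3:87752615-87757294 on the plus strand, was below FPKM 1 in every library, from 0.375 in Cd73P wild type to 0.557 in Cd73N wild type. Its ratios lay between -0.18 and 0.05, each no larger than about its counting SE, which was at most 0.179, so that a difference in Crabp2 was not detectable at this depth.

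**Figure D1:**
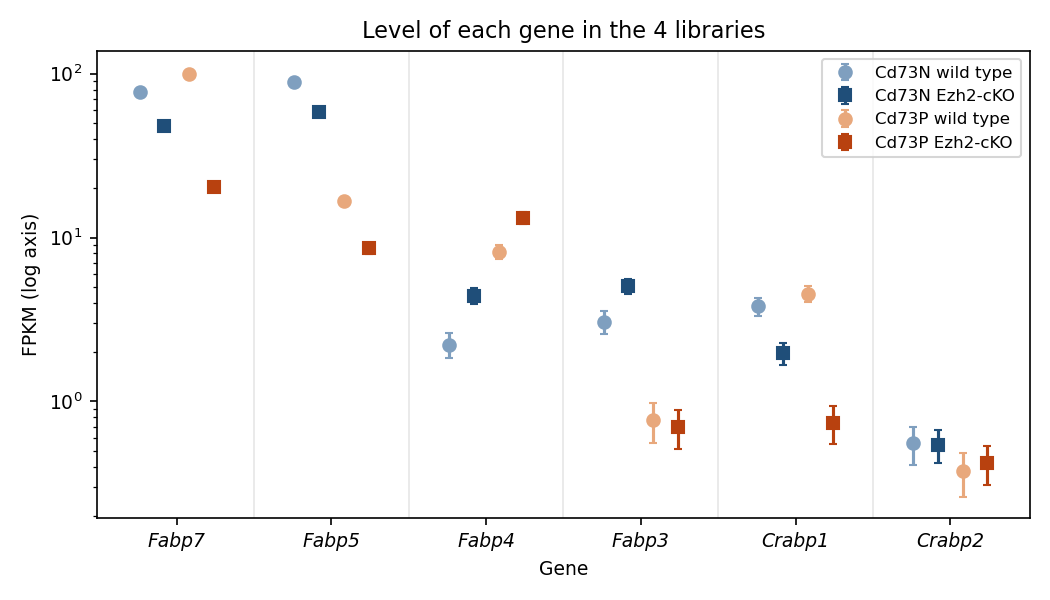
FPKM of the 6 carrier genes on a log axis in the 4 libraries (circles wild type, squares Ezh2-cKO; blue Cd73N, orange Cd73P), with bars of 1 counting SE and 1 library per point. Fabp7 and Crabp1 are lowest in Cd73P Ezh2-cKO (20.5 and 0.74), Fabp4 is highest there (13.2), and Fabp5 and Fabp3 are lower in both Cd73P libraries than in both Cd73N libraries.

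**Figure D2:**
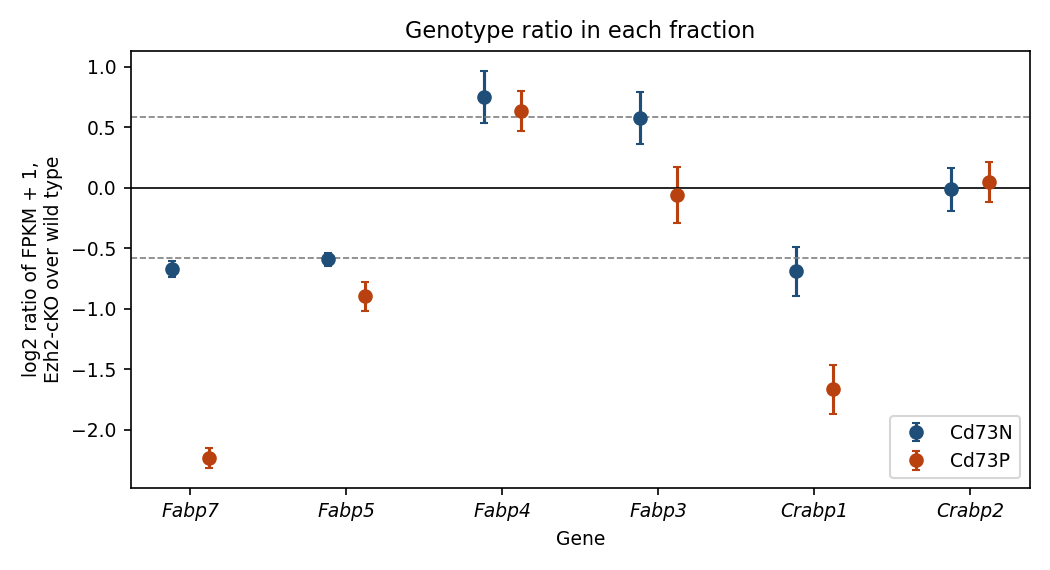
Difference of log2(FPKM + 1), Ezh2-cKO minus wild type, for each of the 6 genes in Cd73N (blue) and Cd73P (orange), with bars of 1 counting SE and dashed lines at 1.5-fold. Fabp7, Fabp5 and Crabp1 lie below the lower line in both fractions and Fabp4 above the upper line in both, while Crabp2 lies near 0.

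Counted together, 1 of the 6 genes was higher past 1.5-fold in Ezh2-cKO and 3 were lower in Cd73N, where 7.18% of all 21702 genes compared were higher and 1.71% lower. In Cd73P, the comparison used to choose the group, 1 was higher and 3 lower, beside 2.26% and 2.39% of all genes. With libraries set to the same FPKM sum, the Cd73N count was 2 higher (Fabp3 at 0.70 and Fabp4 at 0.87) and 1 lower (Crabp1 at -0.59). On the deposited scale the genes called were the same in both fractions, Fabp4 being higher and Fabp5, Fabp7 and Crabp1 lower. When genes under FPKM 1 on both sides of a comparison were left out, the background shares were 11.6% higher and 2.87% lower in Cd73N and 4.31% and 4.54% in Cd73P. The median ratio of the 6 genes was -0.30 in Cd73N and -0.48 in Cd73P, and that of all genes was 0 in both. Between fractions, 1 gene was higher in Cd73P and 2 were lower in wild type (9.07% and 27.9% of all genes), and 1 was higher and 4 were lower in Ezh2-cKO (8.40% and 29.1% of all genes). Fabp5 and Fabp3 were lower in both counts, and Fabp7 and Crabp1 were the 2 genes added in Ezh2-cKO; the change in ratio was not tested. The 4 comparisons share libraries in pairs, so their values are not independent of each other.

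**Figure D3:**
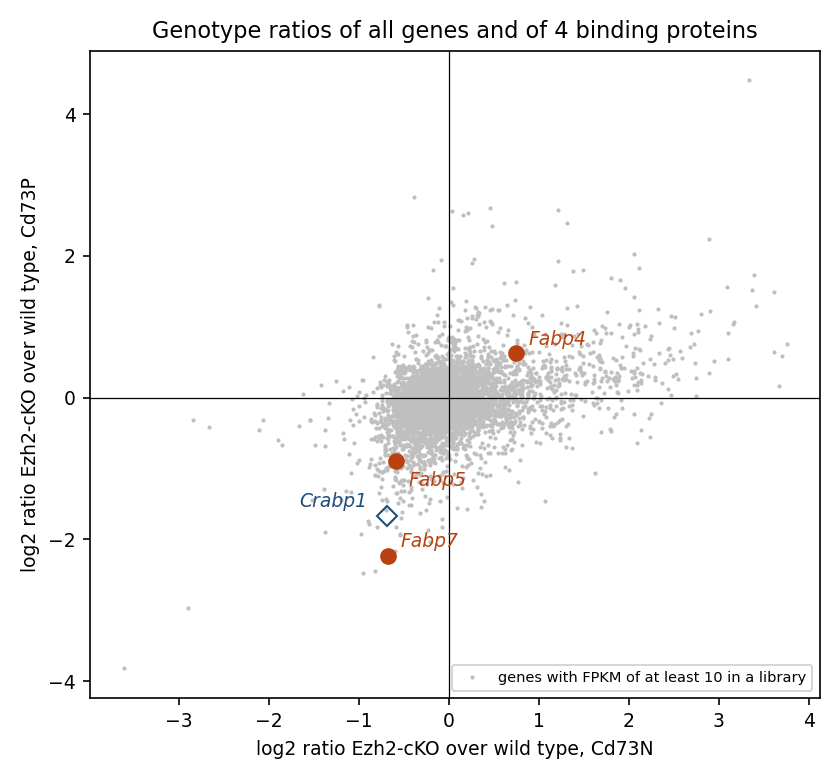
Difference of log2(FPKM + 1), Ezh2-cKO minus wild type, in Cd73N (horizontal) and Cd73P (vertical) for 7623 genes that reached FPKM 10 in a library (grey), with Fabp4, Fabp5 and Fabp7 as filled circles and Crabp1, which is below that level, as an open diamond. Fabp7 lies at -0.67 and -2.23, near the lower edge of the points, and Fabp4 at the upper right, at 0.75 and 0.63.

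Cell type markers moved between genotypes as well, and their values stand beside those of the carriers. Müller glia markers (10 genes, among them Glul, Rlbp1 and Apoe) had a summed FPKM of 1080 (wild type) and 5580 (Ezh2-cKO) among Cd73N cells and of 114 and 238 among Cd73P cells, all 10 being higher in Ezh2-cKO in Cd73N and 7 in Cd73P. Bipolar cell markers (10 genes) had sums of 2412, 1429, 218 and 70.0 in the same order, with 6 lower in Ezh2-cKO in Cd73N and 8 in Cd73P. The bipolar marker sums were therefore lower in the same comparisons as Fabp7, Fabp5 and Crabp1, and the Müller glia marker sums were higher. Rod markers (9 genes with an OK status in all 4 libraries) had sums of 874, 876, 12574 and 17880. Of these, 5 were lower in Ezh2-cKO in Cd73N and 2 higher in Cd73P. Cone markers (8 genes) had sums of 3795, 5333, 251 and 115, with 3 higher in Ezh2-cKO in Cd73N and 6 lower in Cd73P. Smaller sums were found for microglia (49.8, 72.2, 10.2 and 14.2), endothelial cells (34.9, 114, 8.47 and 7.95), pericytes (207, 243, 6.99 and 3.93) and amacrine cells (32.6, 78.6, 29.4 and 24.8). Ganglion cell markers had sums of 15.7, 42.0, 2.75 and 1.79, pigment epithelium markers 8.07, 7.94, 44.5 and 39.9, astrocyte markers 5.35, 15.3, 1.95 and 2.57, and horizontal cell markers 1.27, 1.93, 0.39 and 0.44. Some of these sums were carried in large part by single genes. Among the bipolar markers Prkca was not lower in Cd73P, with 26.8 in wild type and 29.7 in Ezh2-cKO, where the list summed to 70.0. Amacrine markers in Cd73P were mostly Slc6a9 (24.1 in wild type and 21.4 in Ezh2-cKO). Gad1 was the only amacrine marker past 1.5-fold lower there (1.40 and 0.22). Gad2 had 0.28 and 0.05, Slc32a1 0.52 and 0.11, Calb2 0.53 and 0.27, and Pax6 2.51 and 2.69. In Cd73N Gad1 was higher in Ezh2-cKO (0.80 and 1.74), where Fabp7 was lower. The endothelial sums in Cd73N were mostly Kdr (22.6 and 86.2) and Flt1 (2.86 and 16.2), while Pecam1 had 0.93 and 1.07, and the pericyte sums were mostly Rgs5 (173 and 209.7). In such mixed fractions fewer cells of a type and less RNA per cell cannot be told apart.

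The share of each gene's level found in Cd73P, its FPKM there as a percent of the sum over both fractions of a genotype, sets the carriers beside these markers. Rod markers had shares of 84.8% to 99.3% in wild type, Müller glia markers 3.14% to 22.6% with a median of 6.28%, and bipolar markers 1.15% to 48.5% with a median of 5.21%. Fabp7 had a share of 56.3% in wild type and 29.8% in Ezh2-cKO, and Crabp1 one of 54.3% and 27.3%. Both were thus above every Müller glia and bipolar marker and below every rod marker in wild type. Some markers of other lists also had high shares. The 5 amacrine markers ranged from 11.0% to 78.9% in wild type, with a median of 21.1%. Gad1 had 63.7% in wild type and 11.0% in Ezh2-cKO, and Slc6a9 78.9% and 70.5%. The endothelial marker Cldn5 had 56.6% and 17.7%, and Pecam1 70.8% and 72.7%. The share of Fabp4 was 78.7% and 75.1%, that of Fabp5 15.9% and 12.8%, and that of Fabp3 20.1% and 12.2%. The wild-type shares of Fabp5 and Fabp3 were inside the ranges of the Müller glia, bipolar, microglia and endothelial markers. Among the Müller glia markers only Clu (22.6%) lay above them, the next being Glul at 11.3%. In Ezh2-cKO the shares of Fabp5 and Fabp3 were above every Müller glia marker. Wild-type shares were 4.06% to 70.8% for 5 endothelial markers and 10.9% to 20.7% for 5 microglia markers, below that of Fabp4, and those of 3 pigment epithelium markers were 74.8% to 92.7%. The highest bipolar marker share was that of Prkca. In Ezh2-cKO the Müller glia shares had a median of 3.60% and a highest value of 9.26%, and the bipolar shares a median of 2.40% with Prkca at 54.7%, above Fabp7 and Crabp1. How far other cells in the Cd73P sort contribute to the levels of these genes was not tested.

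**Figure D4:**
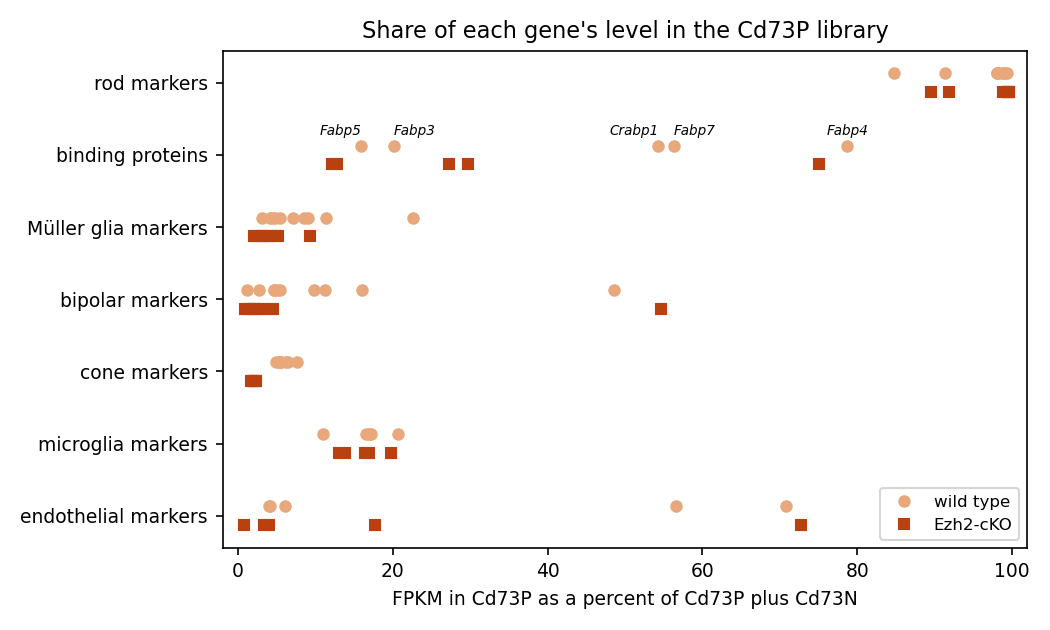
FPKM in Cd73P as a percent of Cd73P plus Cd73N for each gene of 6 marker lists and for the 5 carriers with FPKM of at least 1 in a library (orange circles wild type, dark squares Ezh2-cKO; 1 gene per point). Fabp7 and Crabp1 lie between the rod markers and the Müller glia markers, at 56.3% and 54.3% in wild type and 29.8% and 27.3% in Ezh2-cKO. The endothelial marker Cldn5 lies near them in wild type (56.6%), and amacrine markers are not drawn.

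Set within the whole family of 15 carriers found in the tables, the leading gene differed between libraries. Fabp7 made up 35.6% (wild type) and 29.0% (Ezh2-cKO) of the family's summed FPKM among Cd73N cells, and 54.3% and 19.1% among Cd73P cells. In Cd73P Ezh2-cKO Fabp12, a retinal member of the family, led with 53.9%, and in both Cd73N libraries Fabp5 led with 40.8% and 35.3%. The shares and sums in Cd73P include the Fabp7 levels by which the group was chosen, so they are a description only. Fabp12 had FPKM of 10.03, 11.5, 49.2 and 57.7 in the order used above, so that it was higher in Cd73P by 2.19 in wild type and 2.23 in Ezh2-cKO on the log2 scale, with genotype ratios of 0.18 and 0.23, short of 1.5-fold. Of the 9 relatives, 1 was past 1.5-fold higher in Ezh2-cKO in Cd73N, Fabp9, at FPKM 0.06 and 0.80, and none in Cd73P. Fabp1, Fabp2 and Rbp2, carriers of liver and intestine, were listed at 0 in every library. The sum over the family was 217.9, 166.3, 183.8 and 107.1, of which the 6 genes made up 176.0, 118.9, 130.5 and 44.1.

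Of these genes, 5 lie together on chromosome 3 of mm9. Counted from Fabp5, Pmp2 (a carrier of peripheral myelin) began at 167 kb, Fabp9 at 181 kb, Fabp4 at 192 kb and Fabp12 at 232 kb. With small RNAs left out, no other gene with 1 row began between them. Within this stretch Fabp5 was lower in Ezh2-cKO in both fractions and Fabp4 higher in both. Pmp2 had FPKM of 0.11, 0.50, 0.88 and 1.09 and Fabp9 of 0.06, 0.80, 0.74 and 0.61. All 4 neighbours of Fabp5 were higher in Cd73P than in Cd73N in wild type, past 1.5-fold, whereas Fabp5 was lower. Pmp2 and Fabp9 were below FPKM 1 in both wild-type libraries, with 7.84 and 4 implied fragments in Cd73N. In Ezh2-cKO Fabp4 and Fabp12 were again higher in Cd73P past 1.5-fold. There Pmp2 was short of it (0.48) and Fabp9 was not higher (-0.17).

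**Figure D5:**
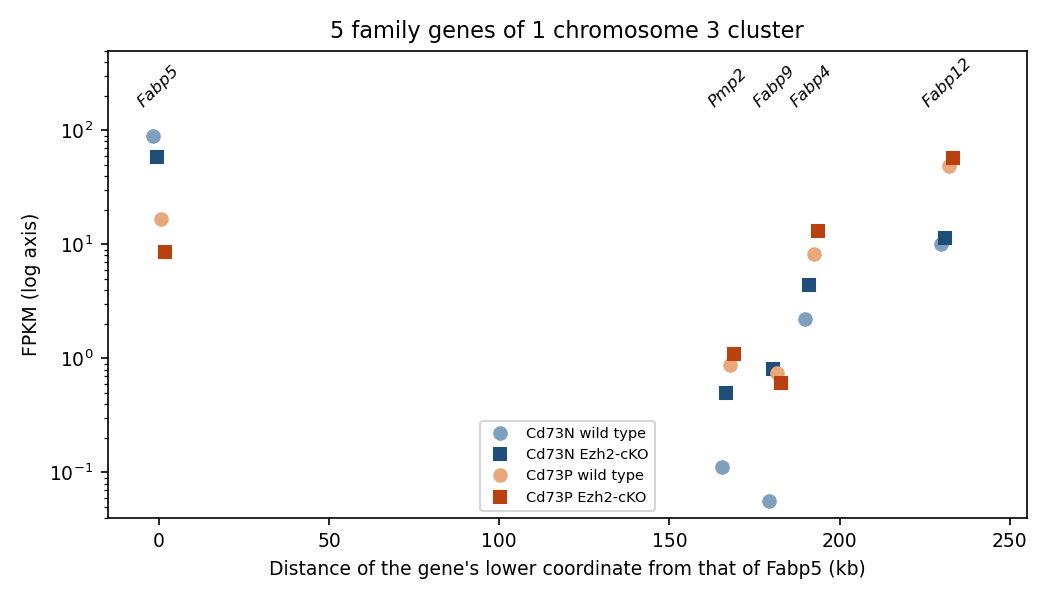
FPKM on a log axis of the 5 carrier genes of the chromosome 3 cluster against their distance from Fabp5 in kb, in the 4 libraries (circles wild type, squares Ezh2-cKO; blue Cd73N, orange Cd73P; points set slightly apart sideways). In wild type Fabp5 is lower in Cd73P (16.8) than in Cd73N (88.9), and the other 4 genes are higher in Cd73P.

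Fatty acids are the ligands of the Fabp proteins. Of 15 genes listed for fatty acid uptake, activation or acyl-CoA binding, 4 were higher and 1 lower past 1.5-fold in Ezh2-cKO in Cd73N. Shares there were 7.18% and 1.71% over all genes, and 11.6% and 2.87% over those at FPKM 1 or more in either library. In Cd73P 1 was higher and 1 lower, beside 2.26% and 2.39% of all genes. The median over those with FPKM of at least 1 was 0.17 in Cd73N (11 genes) and -0.03 in Cd73P (9 genes). Dbi, which binds fatty acyl-CoA, had FPKM of 244, 490, 33.1 and 52.4 and was higher in both fractions, by 1.01 and 0.65. The study counts Dbi among genes related to Müller glia. Müller glia markers were higher in Cd73N by a median of 2.11, and their part in these values was not tested. Acsl3, a fatty acyl-CoA synthetase, had FPKM of 87.9, 321, 24.2 and 27.6 and was higher in Cd73N by 1.86, with a ratio of 0.18 in Cd73P. Fatty acid transporters went both ways in Cd73N: Slc27a1 was higher by 1.07 (FPKM 19.2 and 41.2), Slc27a6 was higher by 0.69 (1.18 and 2.52), and Slc27a3 was lower at -0.61 (12.9 and 8.05). Lpl, the lipase that frees fatty acids from lipoproteins, was the 1 gene lower in Cd73P, at -0.75 (FPKM 1.07 and 0.23). The synthetases Acsl6 and Acsl1 had Cd73P FPKM of 84.95 and 46.9 in wild type and 83.3 and 42.0 in Ezh2-cKO, and Slc27a4 had FPKM of 18.6, 13.7, 6.22 and 6.72.

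Retinoic acid is the ligand of Crabp1 and Crabp2. Of 11 genes of its supply and breakdown, with retinol transport and storage among them, 6 were higher in Cd73N of Ezh2-cKO and none lower. Shares over all genes were 7.18% and 1.71%. In Cd73P 2 were higher and none lower, beside 2.26% and 2.39%. Their median over genes with FPKM of at least 1 was 1.12 in Cd73N (8 genes) and 0.25 in Cd73P (5 genes). Cyp26a1, which oxidises retinoic acid, had FPKM of 3.04 in wild type against 35.4 in Ezh2-cKO among Cd73N cells, higher by 3.17 ± 0.103 on the log2 scale, and of 0.19 against 1.49 among Cd73P cells, higher by 1.06. Among the enzymes that make retinoic acid, Aldh1a1 had FPKM of 24.5, 105, 1.09 and 7.53, higher by 2.06 in Cd73N and 2.03 in Cd73P, and Aldh1a2 had FPKM of 3.47 in Ezh2-cKO among Cd73N cells and was listed at 0 in wild type. Rdh10, which oxidises retinol, had FPKM of 42.6, 115, 35.2 and 36.2, higher by 1.41 in Cd73N with a ratio of 0.04 in Cd73P. Dhrs3, which reduces retinal, had 3.27, 6.57, 66.7 and 79.4, higher by 0.82 in Cd73N with a ratio of 0.25 in Cd73P. Cyp26c1 was higher by 0.76 in Cd73N, at FPKM 0.41 and 1.40. Crabp1 was thus lower, at -0.69 in Cd73N, where these 6 genes were higher. The Müller glia markers were higher in the same comparison, by a median of 2.11, and their part in these values was not tested.

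Among 9 nuclear receptors of retinoic acid and fatty acids, 1 was higher past 1.5-fold in Cd73N, Rarg, by 0.64 (FPKM 1.05 and 2.18), and none was called in Cd73P. That count is near the background of 7.18% of all genes and 11.6% of those that reach FPKM 1. The median ratio was 0.33 in Cd73N and 0.05 in Cd73P, over 7 genes in each. The receptors with the highest levels in Cd73P were Ppard (26.5 in wild type and 27.4 in Ezh2-cKO), Rxra (21.3 and 21.1), Rxrb (18.8 and 16.3) and Rara (13.2 and 14.4). Their levels in Cd73P wild type and Ezh2-cKO differed by less than 1.5-fold. Rxrb and Rara had FPKM of 25.1 and 9.20 in Cd73N wild type and of 20.2 and 10.5 in Cd73N Ezh2-cKO.

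The genes whose pattern over the 4 libraries was closest to that of each carrier with FPKM of at least 10 were sought among 7598 genes, as the root mean square difference of log2(FPKM + 1) after each gene's mean was taken off. For Fabp7 the closest was Cplx2, a complexin of neurotransmitter release, at 0.228, with FPKM of 31.5, 26.7, 48.6 and 12.6. Arhgap31 and Cdk5rap1 followed at 0.389 and 0.400, and 1 gene in all lay within 0.25. The pattern of Fabp7 includes the fall by which the group was chosen, so the number of close matches is a description only. Fabp5 had 75 genes within 0.25, led by Cplx3, a complexin of ribbon synapses, at 0.040, with FPKM of 405, 265, 75.0 and 39.5, then Cacnb3 at 0.071 and 1600021P15Rik at 0.088. Fabp4 had 68, led by Osbpl8 and Tnip2, both at 0.065, and Cst3 at 0.068. These distances rest on 4 libraries and are descriptions.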

How the data were processed

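Libraries of poly(A) RNA were sequenced as 36-base single reads by the authors, who aligned them to mm9 with TopHat2 2.0.8b (coverage search; reads with as many as 50 hits kept) and derived FPKM with Cufflinks 2.1.1, per the submitters' processing notes and the study's methods; bcl2fastq 1.8.4 is also listed. The deposited FPKM values, with a lower and an upper bound and a status per row, were not scaled between libraries. Small RNAs were left out by name and rows of 1 symbol were summed, which gave 21828 genes. Absolute depth is unknown, because the tables give no read totals. The width of the deposited bounds was taken as 4 SE around their own centre, and that relative SE was applied to FPKM; in 23.8% to 26.6% of rows with FPKM over 1 the value exceeded the upper bound of its own row, Fabp5 and Fabp7 being among these in all 4 libraries. Implied fragments are 1 over the squared relative SE.

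Groups came from the sample labels. With 1 library per group, log2(FPKM + 1) was compared at 1.5-fold with no test, using Python 3.11.15, numpy 2.4.6 and pandas 2.3.3, and figures were drawn with matplotlib 3.10.9. The scripts were tested on simulated data. A gene not OK in either library was left out of that comparison. Start positions in mm9 are given with 1 added to those of the files, and exon numbers come from GENCODE on the same build. Named genes were the 6 carriers, Ezh2 and Nt5e as label checks, genes of the 4 related lists with FPKM of at least 10 in a library or past 1.5-fold between genotypes with FPKM of at least 1, and the 3 nearest patterns of each carrier with FPKM of at least 10; Fabp9, Pmp2 and the relatives listed at 0 or below FPKM 1 were named after their values were seen. Not every gene this rule covers is reported here. Prkca and the marker genes named come from the marker lists. The carriers and lists were chosen with earlier results of these data known. Alternatives were other pseudocounts, scalings, thresholds and filters on low values.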

Additional observations from a re-analysis of the deposited data

Results flagged for a closer look

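Each value here is a difference of 2 log2 ratios of FPKM + 1 whose signs were opposite; with 1 library per group none of these differences was tested. The ratio of Cd73P over Cd73N changed by -1.56 for Fabp7, from 0.36 in wild type to -1.20 in Ezh2-cKO, and by -0.97 for Crabp1, from 0.20 to -0.77. That of Fabp7 rests on the Cd73P Ezh2-cKO level by which the group was chosen. For Crabp1 that library held an FPKM of 0.74 from 15.4 implied fragments, and its wild-type ratio was about as large as its counting SE (0.193). The genotype ratio was 0.57 for Fabp3 in Cd73N against -0.06 in Cd73P, which differ by -0.63, and -0.01 against 0.05 for Crabp2, which differ by 0.062, a value within the counting error.

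Among genes of fatty acid uptake and activation, the genotype ratio in Cd73P minus that in Cd73N was -1.26 for Slc27a1 (1.07 in Cd73N and -0.19 in Cd73P), 0.52 for Slc27a4 (-0.42 and 0.10), -0.33 for Acsl1 (0.17 and -0.16) and -0.97 for Lpl (0.22 and -0.75). Among the receptors it was -0.47 for Rxra (0.46 and -0.01) and 0.18 for Ppard (-0.13 and 0.05).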

How the results depend on the processing

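Of 159 ratios of single genes under the alternatives, 137 stayed within the 95% counting interval of the reported ratio and 22 moved beyond it. Reversal was counted only for ratios past 1.5-fold, and 0 reversed. Another pseudocount, or none, cannot change the sign of a ratio. Setting the median of all genes at 0 took nothing off in the genotype comparisons. For those alternatives the lack of reversal was fixed in advance, so these totals are a description and no check of direction. Of the 6 genes, 4 were past 1.5-fold between genotypes in Cd73N; this became 5 with a pseudocount of 0.1 or with none, Fabp3 being added, 3 with libraries set to the same FPKM sum, 1 with a pseudocount of 5 and 0 at a 2-fold threshold. In Cd73P, 4 became 2 at a 2-fold threshold, and for Cd73P over Cd73N in Ezh2-cKO 5 became 3 when no pseudocount was added and both libraries had to reach FPKM 1, since fewer genes were then compared. The log2 ratio of FPKM sums, which setting libraries to the same sum takes off, was -0.15 between genotypes in Cd73N, 0.05 in Cd73P, -0.42 between fractions in wild type and -0.21 in Ezh2-cKO. The median log2 ratio of genes that reached FPKM 1 in both libraries, a centring chosen after seeing the data, was -0.06, -0.04, -0.34 and -0.27, and that of all genes was 0 for both genotype comparisons. For Crabp1 in Cd73P the ratio of -1.67 was -2.46 with a pseudocount of 0.1 and -0.73 with one of 5. No paired analysis was possible because each group held 1 library and the labels carry no replicate numbers. With the centre of the bounds in place of FPKM, also chosen after seeing the data, each of the 24 ratios stayed within that interval; the ratio of Crabp1 in Cd73P was then -1.44 and that of Fabp3 between fractions in Ezh2-cKO -1.54, moves larger than 1 SE. Counting error leaves differences in Crabp2 and in Fabp3 in Cd73P undetectable.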
